A study of Mus musculus with 80 samples.

Results

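The late change in DNA methylation of UHRF1 KO embryonic stem cells (ESCs) was followed between 96 and 168 h of culture in 2i. The comparison set the 2 reduced representation bisulfite sequencing (RRBS) libraries of 168 h against the 2 libraries of 96 h, 4 of the 80 samples of the series. RRBS enriches CpG-rich fragments and reads the methylation of single cytosines in CpG dinucleotides after bisulfite conversion. The autosomes were cut into tiles of 500 bp, and a tile was a member when it held at least 20 calls at 3 or more positions in each of the 4 libraries. A call is the state of 1 cytosine in 1 read. Of 989682 autosomal tiles with a call in any of the 4 libraries, 30747 were members, and their methylation is the percent of calls that were methylated.

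All cells were mouse ESCs, labelled as of E14 background. The labels give the UHRF1 KO genotype as UHRF1-/-, and the study's methods describe floxed alleles deleted by a tamoxifen-inducible Cre recombinase shortly before the medium was changed. Cells grown in serum with LIF were moved to 2i, a serum-free medium with LIF and inhibitors of MEK and GSK3, and 2 libraries were used for serum and for each of 5 times in 2i (24, 48, 72, 96 and 168 h). The lines UHRF1 WT and E14, both labelled wild-type, were sampled at the same times with 2 libraries each, except for 1 usable serum library of UHRF1 WT. Whether UHRF1 WT carries floxed alleles or was given tamoxifen was not found in the labels or the methods. No RNA of the UHRF1 KO line was analysed and RRBS does not read the deletion, so neither the loss of UHRF1 nor the share of cells with an undeleted allele was checked. Nothing states that replicates came from separate cultures, and p-values measure only the spread between these libraries.

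DNA methylation is copied after each round of replication by DNMT1. UHRF1 brings DNMT1 to the newly made strand by binding hemi-methylated CpGs and histone H3 methylated at lysine 9, and without either protein methylation is diluted as cells divide. DNMT3A and DNMT3B place methylation on unmethylated CpGs, and TET enzymes oxidize it. ESCs in 2i hold much less methylation than ESCs in serum, and gene starts in CpG islands lack it in both media, apart from a small class that includes genes of the germ line.

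The 4 gene starts below show what such a methylated CpG-rich sequence looks like at the tiles compared. Most of the Dazl bases lie past the end of its tile, which runs from 50432501 to 50433000 on chromosome 17. Sycp1 encodes a protein of the synaptonemal complex, Hormad1 a protein of the meiotic chromosome axis and Dazl an RNA-binding protein of germ cells. Clcn4 encodes a chloride transporter, and its start was chosen after its values were seen. The sequences are those of the RefSeq promoter table (GRCm38.p6, 250 bases before to 50 after the start), read 5' to 3' on the strand of the gene with each CpG in capitals. They were placed on NCBIM37, the build of the files, by the spacing of their CpGs alone, at chr3:102739974-102740273 (Sycp1, minus strand), chr3:95363349-95363648 (Hormad1, plus strand), chr17:50432896-50433195 (Dazl, minus strand) and chr7:7252219-7252518 (Clcn4, minus strand).
Sycp1: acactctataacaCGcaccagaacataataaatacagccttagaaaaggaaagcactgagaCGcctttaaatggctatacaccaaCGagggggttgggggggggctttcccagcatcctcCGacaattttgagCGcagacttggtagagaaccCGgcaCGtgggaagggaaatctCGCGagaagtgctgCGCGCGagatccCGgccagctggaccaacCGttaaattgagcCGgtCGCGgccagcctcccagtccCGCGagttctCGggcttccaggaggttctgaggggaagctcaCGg
Hormad1: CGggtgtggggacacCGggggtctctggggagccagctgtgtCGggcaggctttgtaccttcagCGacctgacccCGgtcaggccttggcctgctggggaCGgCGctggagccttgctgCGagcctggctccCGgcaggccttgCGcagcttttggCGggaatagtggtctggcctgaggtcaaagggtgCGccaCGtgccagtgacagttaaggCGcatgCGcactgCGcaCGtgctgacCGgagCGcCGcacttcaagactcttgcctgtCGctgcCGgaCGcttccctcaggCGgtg
Dazl: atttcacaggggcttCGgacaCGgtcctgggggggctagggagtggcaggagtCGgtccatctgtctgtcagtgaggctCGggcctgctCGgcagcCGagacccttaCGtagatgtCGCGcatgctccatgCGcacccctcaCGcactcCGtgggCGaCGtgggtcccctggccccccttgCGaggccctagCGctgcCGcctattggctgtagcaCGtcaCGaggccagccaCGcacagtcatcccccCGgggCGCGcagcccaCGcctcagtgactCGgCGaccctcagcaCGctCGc
Clcn4: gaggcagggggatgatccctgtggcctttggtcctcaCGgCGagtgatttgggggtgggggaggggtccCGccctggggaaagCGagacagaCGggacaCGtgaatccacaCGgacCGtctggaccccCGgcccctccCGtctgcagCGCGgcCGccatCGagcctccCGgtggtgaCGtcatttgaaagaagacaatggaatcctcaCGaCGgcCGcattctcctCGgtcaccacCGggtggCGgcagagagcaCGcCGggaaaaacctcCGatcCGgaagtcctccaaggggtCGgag
These 300 bases hold 21 CpGs in Sycp1, 24 in Hormad1, 28 in Dazl and 27 in Clcn4. The E-box CACGTG, the same on both strands, occurred 1 time in Sycp1, 2 times in Hormad1, 1 time in Clcn4 and 0 times in Dazl, against 7.15% of all 32851 promoters of the table with at least 1. The letters TCCCGC or GCGGGA, the same motif on the other strand, occurred 1 time each in Sycp1, Hormad1 and Clcn4 and 0 times in Dazl, against 19.98% of all promoters. A match describes the letters and is not a site.

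The 4 libraries differed in more than time. They held 10164556 and 8399816 calls at 96 h and 4594629 and 10818220 at 168 h, with a median of 153, 127, 62 and 147 calls per member tile. Positions seen by only 1 call made up 26.2% and 24.96% of all positions at 96 h but 50.6% and 49.5% at 168 h, against 11.5 to 30.8% in the other RRBS libraries of the 3 lines. Calls on the mitochondrial genome, which is held to be nearly free of CpG methylation, were methylated in 0.124% and 0.142% of cases at 96 h and in 0.760% and 0.739% at 168 h, against 0.0746 to 0.830% in the other libraries. The share of calls on each autosome changed little, with ratios of 168 h to 96 h from 0.989 to 1.03. These shares count calls up to a cap per position, so the most deeply read positions weigh less in them. The part of these differences in the results below was not tested except where a value is given.

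Methylation in the UHRF1 KO was higher at 168 h than at 96 h. The mean over the member tiles was 6.05% and 5.99% at 96 h and 7.90% and 7.82% at 168 h, so that both late libraries lay above both early ones. The change was 1.84 percentage points, from 6.02% ± 0.0447 to 7.86% ± 0.0568 (SD, n = 2 each). The exact two-sided permutation test gave p = 0.333, the smallest value that 2 against 2 libraries allow, so no comparison of this kind could pass 0.05. The share of tiles methylated to at least 50% was 1.98% and 1.90% at 96 h and 4.82% and 4.23% at 168 h, or 609 and 584 tiles against 1481 and 1300. The size of the mean change depended on which tiles and calls were counted. It was 3.43 points with 10 or more calls per tile, 0.632 points with 50 or more, and 0.276 points as the percent of all calls in the tiles, the last within its spread between libraries (0.301 points).

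Most of the member tiles had little methylation to begin with, and the change was larger in the others. Serum libraries of the same line, which the comparison does not use, gave a starting level to 26387 of the members. In the 21452 tiles below 10% in serum, the mean was 0.563% ± 0.0113 at 96 h and 1.08% ± 0.0711 at 168 h (SD, n = 2 each). This change of 0.516 points was no larger than the change on the mitochondrial genome, and after the mitochondrial percent of each library was taken off, a correction added after seeing the data, it was -0.0986 points.

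In tiles that were methylated in serum the change was several times that of the mitochondrial calls. Tiles of 10 to 30% in serum (1598 tiles) went from 5.60% ± 0.0807 to 8.61% ± 0.100. Those of 30 to 50% (650 tiles) went from 13.5% ± 0.0196 to 19.6% ± 0.449, a change of 6.13 points. Above 50% in serum the changes lay closer together. The change was 7.19 points in the 637 tiles of 50 to 70%, from 22.3% ± 0.239 to 29.5% ± 0.199. It was 7.89 points in the 1149 tiles of 70 to 90%, from 34.2% ± 0.547 to 42.1% ± 0.155, and 7.87 points in the 901 tiles of 90% and over, from 42.4% ± 0.408 to 50.3% ± 0.108. As a ratio, 168 h stood at 1.54 times the 96 h level in the class of 10 to 30% and at 1.19 times in the class of 90% and over. In each of the 6 classes both libraries of 168 h lay above both of 96 h. The order of the 3 upper classes depended on the line that defined them. It was 5.74, 7.07 and 8.01 points with classes from UHRF1 WT serum and 7.76, 8.41 and 6.87 points with classes from E14 serum.

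**Figure D1:**
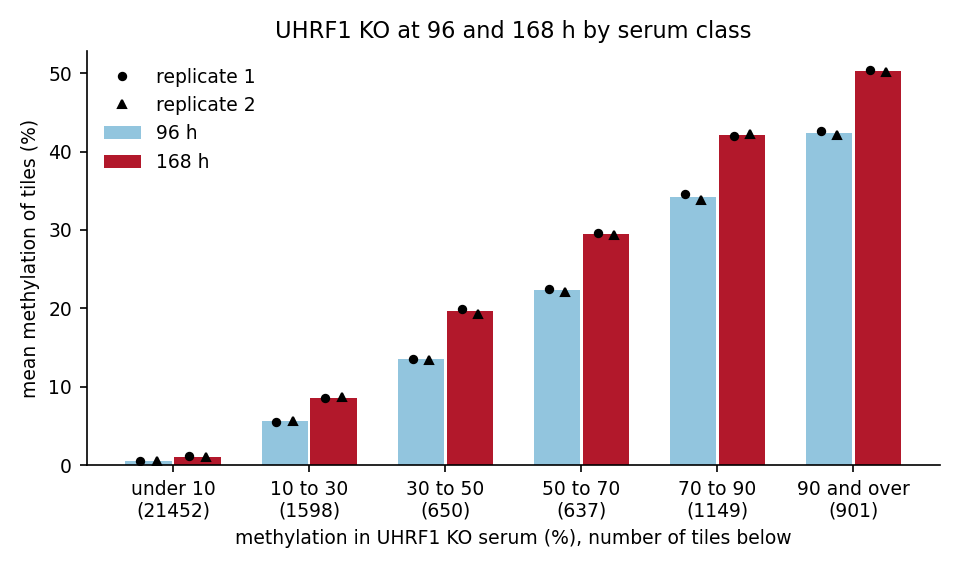
Mean methylation of member tiles (%) in the UHRF1 KO at 96 h and 168 h of 2i, by the tile's methylation in UHRF1 KO serum. Bars are the means of 2 libraries, symbols the libraries, and the numbers under the classes count tiles; the late bar is above the early one in every class, by 7.19 to 7.89 points from 50% upward.

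Taken over all 2687 tiles of at least 50% in serum, the libraries stood at 34.4% and 33.8% at 96 h and at 41.9% and 41.8% at 168 h. The change of 7.72 points was many times the spread of the means of replicates (SD 0.428 and 0.0172 points). It was 7.37 points after the mitochondrial correction and 7.73 points at positions read in all 4 libraries. It lay between 7.42 and 8.02 points when any 1 of the 4 libraries was left out.

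The higher level at 168 h came after a lower level at each earlier step. In 22620 tiles read well enough in all libraries of the 3 lines, 1502 were at 50% or more in UHRF1 KO serum. Their mean was 79.4% in serum and 63.4% after 24 h. It was 49.4% after 48 h, 39.9% after 72 h and 33.1% after 96 h. At 168 h it was 41.0%, close to the level of 72 h. As a share of serum methylation, 41.7% was left at 96 h and 51.6% at 168 h. The SD between replicates was at most 0.716 points at each of these 6 times. In the 455 tiles of 90% and over in serum the same course ran from 93.8% in serum to 41.9% at 96 h and 50.5% at 168 h.

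In the same 1502 tiles UHRF1 WT stood lower at every later time, from 87.4% in its serum library to 59.7% ± 0.00398 at 96 h and 40.9% ± 0.963 at 168 h (SD, n = 2). E14 went from 51.6% ± 0.0114 at 96 h to 33.9% ± 0.179 at 168 h. The UHRF1 KO was thus the lowest of the 3 lines at 96 h, and at 168 h its 2 libraries, at 40.9% and 41.0%, lay between the 41.6% and 40.2% of UHRF1 WT and above the 33.8% and 34.02% of E14.

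**Figure D2:**
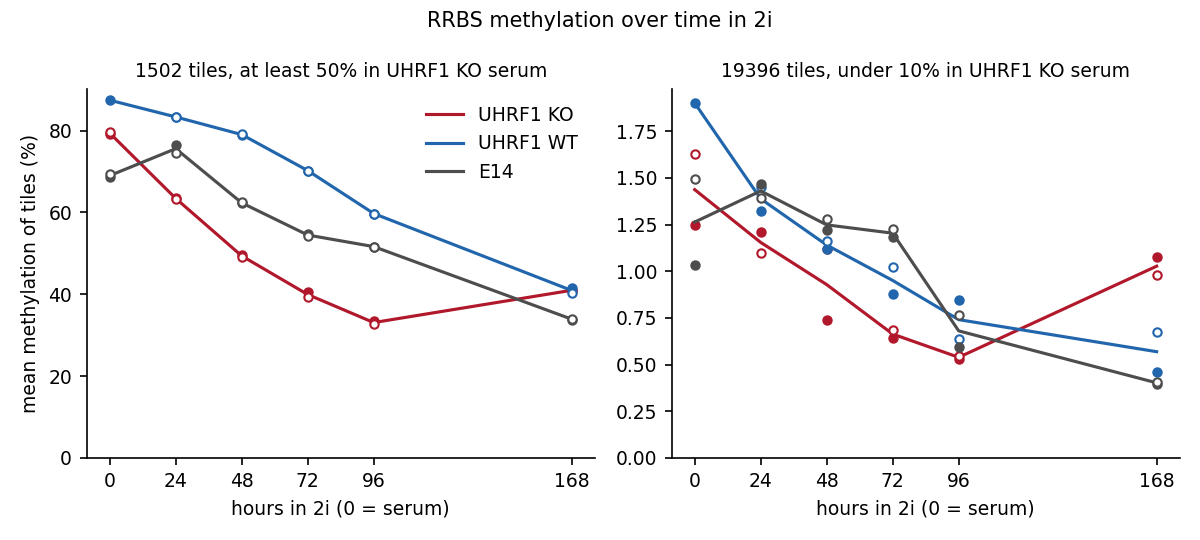
Mean methylation of tiles (%) against hours in 2i, with serum at 0, for UHRF1 KO, UHRF1 WT and E14. Lines join means, filled and open circles are replicates 1 and 2, and the panels hold 1502 tiles of at least 50% (left) and 19396 tiles under 10% (right) in UHRF1 KO serum on separate scales. The UHRF1 KO is higher at 168 h than at 96 h in both panels, at 41.0% and 1.03%, but the difference on the right is no larger than that of the mitochondrial calls, while the means of the other lines are lower at 168 h than at 96 h.

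The size of the change was then described by further features within the 2687 tiles of at least 50% in serum. Of these features, the share of serum methylation kept uses the serum level that chose the tiles, and the number of positions had a minimum of 3. Tiles were grouped by the share of serum methylation that the UHRF1 KO still had at 72 h. Those that had kept under 25% went from 12.3% ± 0.2997 to 19.8% ± 1.33 (67 tiles), those with 25 to 50% changed by 8.70 points (1286 tiles) and those with 50 to 75% by 7.09 points (1255 tiles). In the 74 tiles that had kept 75% or more, the change was 1.67 points, from 54.2% ± 1.63 to 55.8% ± 0.648. Both late libraries, at 56.3% and 55.4%, lay above the early ones, at 55.3% and 53.0%, but the change was about the SD of the early pair.

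Whole-genome bisulfite reads of the input of the H3K9me2 chromatin precipitation, made from ESCs in 2i, gave the methylation of the 10-kb window around a tile. The titles of these samples name neither the UHRF1 KO nor a time, and the paper describes the cells as long-term 2i ESCs. Window values are therefore not those of the libraries compared. In windows under 20% methylated the tiles changed by 9.02 points (362 tiles), and in windows of 20 to 40%, 40 to 60% and 60% or more by 8.32, 6.48 and 4.59 points (1328, 681 and 127 tiles). Tiles in the more methylated windows also started higher at 96 h, at 49.6% in windows of 60% or more against 26.7% in windows under 20%. The number of CpG positions in the tile made less difference, with changes between 6.94 and 8.20 points from under 10 to 40 and more positions. Every autosome changed upward, from 6.14 points on chromosome 4 to 9.66 points on chromosome 6, with at least 49 tiles each.

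**Figure D3:**
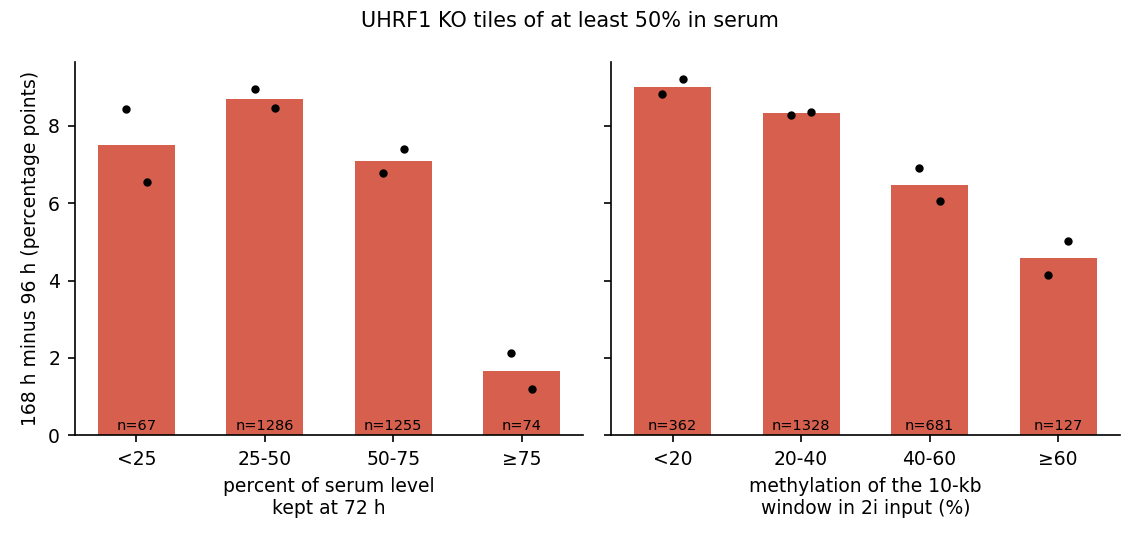
Change of mean methylation from 96 to 168 h (percentage points) in UHRF1 KO tiles of at least 50% in serum, by the share of the serum level kept at 72 h (left) and by the methylation of the 10-kb window in 2i input (right). The input samples are not titled UHRF1 KO. Bars are differences of means, dots the 2 libraries of 168 h less the 96 h mean, and n counts tiles; the bar for tiles that had kept 75% or more is 1.67 points against 7.09 to 8.70 points in the other groups.

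H3K9me2, the histone mark that UHRF1 binds, was ranked in 10-kb windows by the calls of precipitated over input DNA in 2i. The precipitated samples, like their input, are not titled UHRF1 KO. Few members lay in the top 10% of windows, 226 against 29260 in other windows. Their mean went from 33.1% ± 0.381 to 38.0% ± 0.369, a change of 4.95 points against 1.76 points elsewhere. These tiles were also far more methylated in serum, at 63.1% against 10.8%. Among tiles of at least 50% in serum the order turned, with 6.98 points in the 99 tiles of the top 10% and 7.76 points in the 2399 others. That difference of -0.783 points was about the size of the spread between libraries (SD 0.712 and 0.575 points in the top 10%). With the top 25% of windows, looked at after seeing the data, it was well beyond the spread. The 269 tiles of these windows went from 40.9% ± 0.359 to 45.9% ± 0.189, a change of 5.01 points, and the 2229 others from 33.2% ± 0.436 to 41.3% ± 0.0561, a change of 8.06 points. With windows ranked in serum the same classes changed by 7.24 points (291 tiles) and 7.81 points (2233 tiles).

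Single tiles were much noisier than these means. In tiles of at least 50% in serum, replicates differed by 8.30 points on average at 96 h and by 12.3 points at 168 h, against an average change of 10.0 points in either direction. The middle 80% of tile changes ran from -4.51 to 20.3 points with a median of 7.69, and 2130 of the 2687 tiles, or 79.3%, had a higher mean at 168 h. In the 28035 members also read in UHRF1 WT, of any serum level, this share was 67.4%. Among all members, both late libraries lay above both early ones in 8148 tiles, 26.5% of those compared, and below them in 1471 tiles, 4.78%. Of the 8148 tiles, 5004 were under 10% in serum, where the change was no larger than that of the mitochondrial calls. In tiles of at least 50% in serum the shares were 42.1% above and 4.54% below.

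A quasi-binomial model fitted to the calls of all 30747 tiles called a tile when its adjusted p was under 0.05 and its change at least 20 points. It called 9 tiles higher at 168 h, 0.0293% of those tested, and 1 tile lower, 0.00325%. At an unadjusted p under 0.05, 2620 tiles were higher and 112 lower, 2732 of the 30747 tested. If the model holds, a share of about 0.05 of unchanged tiles would pass this threshold. The calls did not hold when either library of 96 h was left out, and fewer tiles passed when either library of 168 h was. Such a fit sets 1 library against 2, takes its spread from the remaining pair and the moderated dispersion, and assumes that the lone library varies alike. Changes in these fits were 16.3 to 61.4 points in the 9 tiles called higher and -32.4 to -10.3 in the tile called lower. Their direction could not turn, since the libraries of 96 h and 168 h did not overlap in any of the 10 called tiles. A test of only the 5499 tiles of at least 10% mean methylation, added after seeing the data, called 0. Of these tiles 811 had an unadjusted p under 0.05, of which 778 were higher.

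By the rule for named tiles, only 1 tile qualified, having at least 50 calls in each library. It lies at 53049501 to 53050000 on chromosome 7 (NCBIM37), where 42 of 274 and 42 of 183 calls were methylated at 96 h and 27 of 67 and 106 of 277 at 168 h. The levels were 15.3% and 23.0% against 40.3% and 38.3%, so that the groups did not overlap (adjusted p = 0.0276, quasi-binomial test). The tile lost its call at positions read in all 4 libraries (19.3 points, adjusted p = 0.113) and without any 1 library (16.3 to 23.95 points, adjusted p from 0.0776 to 0.958). In serum the line stood at 56.9%, and UHRF1 WT moved the other way over the same interval, from 49.8% and 39.1% to 38.5% and 21.5%. The adjoining tile, 53049001 to 53049500, was also called, with 13.8% in both libraries of 96 h and 48.7% and 34.6% at 168 h. No gene start was matched within this stretch of 1000 bp, and the nearest matched starts were those of Sphk2 and Grwd1, 78.4 kb and 36.2 kb away.

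The other 8 called tiles are named here after their values were seen. The largest change was on chromosome 2 at 107889001 to 107889500, from 13.3% and 29.2% to 82.6% and 63.9%, on only 23 to 36 calls per library. On chromosome 1 at 179622501 to 179623000 the levels went from 13.5% and 23.0% to 54.2% and 63.5%, after 93.4% in serum. On chromosome 5 at 137286501 to 137287000 they went from 18.5% and 13.9% to 52.4% and 60.5%. On chromosomes 3, 6 and 8 the other 4 tiles called higher changed by 25.7 to 36.6 points. Of the 9 tiles that were higher, the 6 with a serum level were at 42.2 to 93.4% in serum, which follows in part from the minimum change of 20 points. The tile that fell lies on chromosome 6 at 3151501 to 3152000, with 38.7% and 16.7% at 96 h and 4.76% and 7.95% at 168 h.

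**Figure D4:**
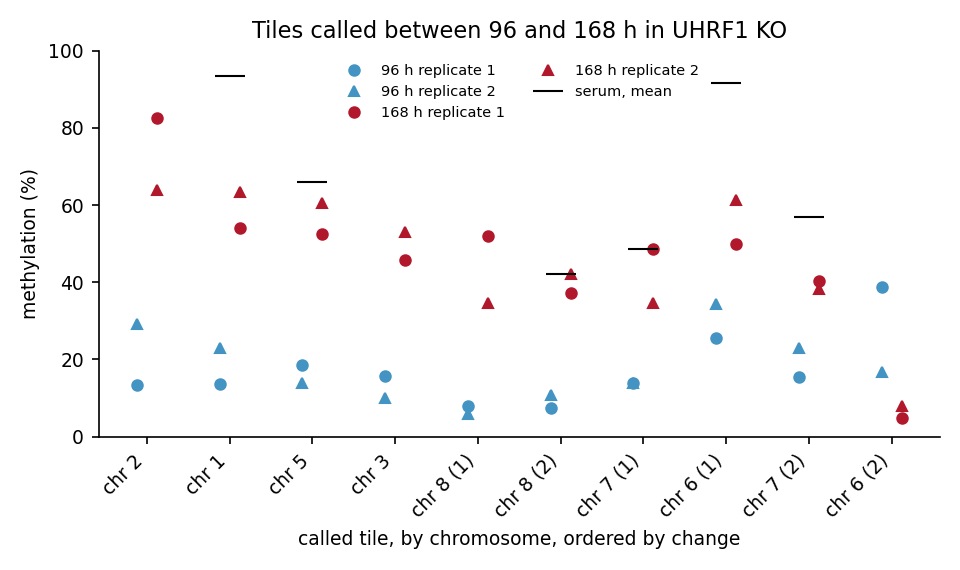
Methylation (%) of the 10 tiles called between 96 and 168 h in the UHRF1 KO, ordered by change and labelled by chromosome. Symbols are the libraries and dashes the mean of the 2 serum libraries where both reached 20 calls; the groups are apart in each tile, the choice of tiles being made on these values.

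The late change differed from that of the control lines over the same interval. In 28035 tiles read in all 8 libraries of UHRF1 KO and UHRF1 WT, the mean went from 5.16% to 6.83% in the UHRF1 KO and from 9.08% ± 0.1197 to 6.01% ± 0.0355 (SD, n = 2) in UHRF1 WT. The interaction of line and time was higher in the UHRF1 KO in 1199 tiles, 4.28% of those tested, and lower in 1 tile, 0.00357%. With 50 or more calls per tile and library it called 127 of 15635 tiles tested. In the 28035 tiles UHRF1 WT taken alone had 1117 lower at 168 h, 3.98%, and 0 higher by the same quasi-binomial test. At an unadjusted p under 0.05, 305 were higher in UHRF1 WT. The UHRF1 WT count was 634 without its replicate 1 of 96 h, and 224 (223 lower, 1 higher) and 475 without its replicates 1 and 2 of 168 h. Leaving out 1 library moved the number of interaction calls by over 1.5 times for 4 libraries. It was 469 without replicate 2 of UHRF1 KO at 168 h, 789 without replicate 1 of UHRF1 WT at 96 h, and 428 and 758 without replicates 1 and 2 of UHRF1 WT at 168 h.

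Against E14, in 30242 tiles, the interaction was higher in the UHRF1 KO in 1957 tiles, 6.47%, and lower in 0 tiles (0.0%) by the quasi-binomial test. At an unadjusted p under 0.05, 85 were lower. With 50 or more calls per tile and library it called 148 of 17541 tiles tested. In the 30242 tiles E14 alone had 1707 lower at 168 h, 5.64%, and 0 higher, with 176 higher at an unadjusted p under 0.05. Without replicate 2 of UHRF1 KO at 168 h the interaction called 721 tiles. These comparisons share the UHRF1 KO libraries.

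Described over the 1199 tiles called against UHRF1 WT, the UHRF1 KO went from 25.02% and 24.4% to 39.4% and 38.5%, and UHRF1 WT from 51.4% and 51.3% to 26.4% and 26.03%. UHRF1 WT changed by -25.1 points on average, the larger part of the difference, and the UHRF1 KO by 14.2 points. Tiles were called on these same changes, whose size therefore follows in part from the rule for a call. In the 2363 tiles of at least 50% in UHRF1 KO serum, UHRF1 WT changed by -18.9 points and the UHRF1 KO by 7.79 points. The 1199 called tiles had a median of 74.0% in UHRF1 KO serum against 1.12% in all tiles tested. Of the called tiles 19, or 1.58%, lay at a matched gene start against 16.7% of all tiles tested. Both follow in part from the rule for a call, since tiles near 0% in both lines cannot differ by 20 points. By serum class the difference from UHRF1 WT was largest from 70 to 90%, where the UHRF1 KO changed by 7.88 points and UHRF1 WT by -20.5 points. The difference from E14 was largest at 90% and over, at 27.5 points, but about as large from 70 to 90%, at 27.1 points. At 90% and over the UHRF1 KO changed by 8.04 points and E14 by -19.5 points.

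**Figure D5:**
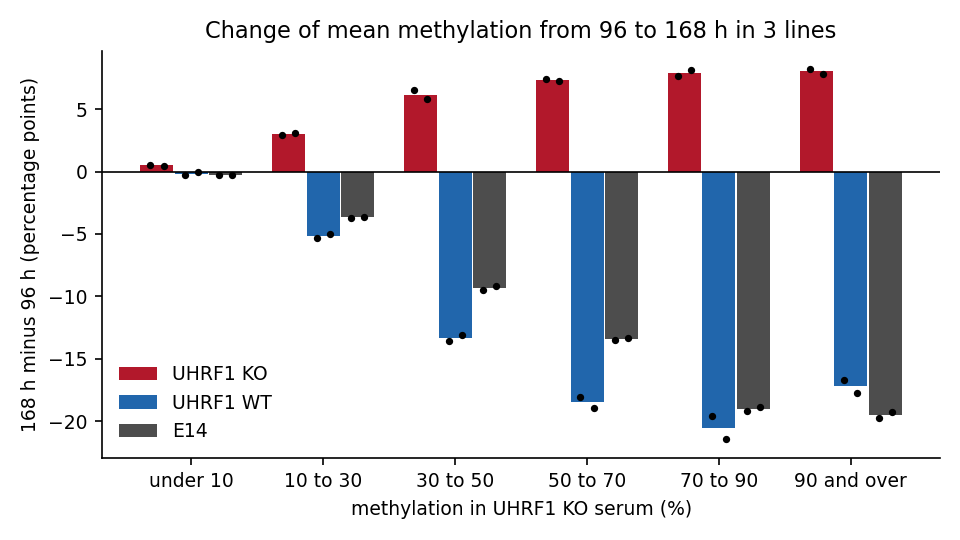
Change of mean methylation from 96 to 168 h (percentage points) by methylation in UHRF1 KO serum, for UHRF1 KO and UHRF1 WT in their shared tiles and for E14 in the tiles it shares with UHRF1 KO. Bars are differences of means and dots the 2 libraries of 168 h less the 96 h mean. UHRF1 KO bars point up in every class and the bars of both other lines point down. In the class under 10% the UHRF1 KO change is no larger than that of the mitochondrial calls. The early and late libraries of UHRF1 WT overlap in that class.

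The 4 tiles named here had the largest differences of change from UHRF1 WT among those with at least 50 calls in all 8 libraries. On chromosome 8 at 124642501 to 124643000 the UHRF1 KO went from 36.7% and 24.6% to 50.0% and 42.9% while UHRF1 WT went from 58.2% and 63.5% to 18.3% and 22.6%. The difference was 56.2 points. The quasi-binomial test of the interaction works on the log of the odds of methylation rather than on points, and gave an adjusted p of 9.02e-06. On chromosome 5 at 137407501 to 137408000, 21.1 kb from the matched start of Fis1, a gene of mitochondrial fission, the UHRF1 KO went from 31.1% and 28.9% to 65.6% and 50.9%, and UHRF1 WT from 35.2% and 38.5% to 7.95% and 10.0%. The lines were close at 96 h there and far apart at 168 h. The other tiles, on chromosome 7 at 6154001 to 6154500 and on chromosome 11 at 96585501 to 96586000, differed by 51.5 and 51.4 points. Without replicate 2 of UHRF1 KO at 168 h the tile on chromosome 11 lost its call, at 37.3 points (adjusted p = 0.178, quasi-binomial test), its late libraries being at 44% and 72.2%. The other 3 tiles kept theirs without any 1 of the 4 UHRF1 KO libraries.

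Matched gene starts changed little as a whole, and the change differed with their methylation in serum. Only 5365 of 31396 autosomal promoters were matched, so the tiles described as elsewhere can hold starts that were not matched. Matched starts lay in 4893 member tiles, whose mean went from 0.932% ± 0.00322 to 1.48% ± 0.103. Of these, 4364 were under 10% in serum and changed by 0.422 points, less than the mitochondrial calls. The 122 starts of 10 to 50% in serum changed by 1.95 points, from 6.82% ± 0.253 to 8.77% ± 0.485, against 4.02 points in the 2126 tiles elsewhere, from 7.94% ± 0.0692 to 11.97% ± 0.0340. Their mean in serum was 21.4% against 23.9% elsewhere. The 39 that were at least 50% in serum changed by 7.02 points, from 33.9% ± 0.408 to 40.9% ± 0.928, against 7.73 points in the 2648 tiles elsewhere. Both late libraries lay above both early ones in 18 of the 39, or 46.2%, and below in 1, or 2.56%, against 42.0% and 4.57% of the tiles elsewhere. None of the 10 called tiles lay at a matched start, a count too small to compare.

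A list of 50 germ line genes had 44 in the promoter table and 10 matched in member tiles, at 11 tiles. Of the 11 tiles, 2 had both late libraries above both early ones and 1 had both below, beside 26.5% and 4.78% of all members and 42.1% and 4.54% of tiles of at least 50% in serum. At an adjusted p under 0.05 (quasi-binomial test) 0 passed, and 0 had an unadjusted p under 0.05, the smallest being 0.0533 at Dazl. The median change was 2.30 points, against 0.402 points over all members and 7.69 points over the tiles of at least 50% in serum. The list was more methylated than the members as a whole, with 8 of its tiles at 10% or more in serum and 5 at 50% or more. At Dazl the tile (50432501 to 50433000 on chromosome 17) stood at 40.5% and 39.1% at 96 h and at 50.5% and 51.7% at 168 h, and at Sycp1 (102740001 to 102740500 on chromosome 3) at 44.5% and 51.6% and then 64.5% and 52.6%. The late libraries were the higher ones at both, by 11.3 and 10.5 points, without passing the test. The list ranged from -9.45 points at Hormad1 to 13.7 points at Fkbp6, a co-chaperone gene of the germ line, with 30.9% and 22.7% at 96 h and 27.3% and 53.8% at 168 h, which overlap. In the 300 bases of Dazl shown above, read by only 25 to 61 calls, 19 of 42 and 18 of 25 calls were methylated at 96 h and 10 of 25 and 37 of 61 at 168 h, levels that overlap.

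At the other germ line starts named here the libraries overlapped or the late ones were lower. Hormad1 spans 2 member tiles on chromosome 3. The first (95363001 to 95363500) stood at 34.2% and 43.6% at 96 h and 43.1% and 41.1% at 168 h, and the second (95363501 to 95364000) at 37.4% and 26.2% and then 25.9% and 18.8%. The libraries overlapped in the first tile and the late ones were lower in the second. Tdrd1, a gene of the piRNA pathway, had 19.4% and 22.2% at 96 h and 19.7% and 17.9% at 168 h, and Mael, of the same pathway, 23.5% and 21.7% and then 23.4% and 25.9%. Slc25a31, which encodes an ADP/ATP carrier of the testis, changed by 0.110 points between overlapping libraries.

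The Clcn4 tile (7252001 to 7252500 on chromosome 7) was the most deeply read of the 39 methylated gene starts and was not higher at 168 h. Its depth was unlike that of the others, with 1465 to 3122 calls per library against at most 273 in any other. The reason for this depth was not tested. It stood at 38.5% and 41.6% at 96 h and at 38.3% and 39.97% at 168 h, after 59.0% in serum. The 300 bases shown above had 2074, 1701, 1463 and 3119 calls in the 4 libraries, at 38.5%, 41.6%, 38.3% and 40.01%. The change of -0.887 points was within the spread of the replicates, beside a change of 7.02 points over the 39 methylated gene starts. Fgf6, a fibroblast growth factor gene, had the largest change of those 39, from 26.4% and 25% to 70.4% and 47.6% in the tile at 126965501 to 126966000 on chromosome 6, with an adjusted p of 0.238 by the quasi-binomial test.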

How the data were processed

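RRBS libraries were made by the authors, trimmed with Trim Galore 0.3.5 and called with Bismark 0.12.3 on NCBIM37, per the labels' processing notes. The deposited files hold methylated and unmethylated call counts per cytosine, and these counts were used as deposited. No columns of the authors' own comparisons were used.

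Calls were summed in 500-bp tiles with at least 20 calls and 3 positions in each library. Each tile was fitted by a quasi-binomial logistic model with dispersions moderated by limma 3.58.1 (R 4.3.3), and p-values were adjusted by Benjamini-Hochberg over all tiles tested. Means were compared by exact two-sided permutation tests (numpy 2.4.6, Python 3.11.15). The scripts were tested on simulated calls, with changes of 15, 25 and 40 points added to 67, 67 and 66 tiles of intermediate level. All other tiles were left unchanged. The fit of the UHRF1 KO called 1.49%, 19.4% and 60.6% of tiles changed by 15, 25 and 40 points. The interaction with UHRF1 WT called 2.99%, 4.48% and 36.4% of such tiles. A tile without a call can therefore have changed. A change of 15 points lay under the minimum of 20 points, so few of those tiles could be called. For the interaction far fewer tiles were changed than were called in the data, so the adjustment was stricter in the simulation. The rates are those of the simulation and not of the fits above. For counting error alone, precision follows the calls per tile given in the text, and PCR duplicates were not separable.

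Named tiles were the called tiles with at least 50 calls in each library and groups that do not overlap (the 8 largest rises, the 6 largest falls and the 4 smallest p), and the 4 largest differences from UHRF1 WT. The tiles compared, the gene list and the alternatives were chosen with earlier results of these data known. Gene starts were placed by matching the CpG spacing of RefSeq promoters (GRCm38.p6, at least 4 CpGs, at least 70% of CpG bases held) to the positions in the files, which kept 5365 of 31396 autosomal promoters. A start belonged to a tile when they shared at least 100 bases. H3K9me2 windows of 10 kb needed at least 50 input calls. Library 2 of UHRF1 WT in serum held too few positions and was left out. Alternatives covered the call minimum, the positions, the dispersion, limma on log2 ratios and each library left out. Replicate numbers were not treated as pairs.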

Additional observations from a re-analysis of the deposited data

Results flagged for a closer look

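The change between 96 and 168 h differed between the UHRF1 KO and UHRF1 WT in 1200 tiles and between the UHRF1 KO and E14 in 1957 tiles, each by the interaction of line and time in the quasi-binomial model. In tiles of at least 50% in UHRF1 KO serum, both late libraries of the UHRF1 KO lay above the early ones while both late libraries of the other line lay below its early ones. The change in the UHRF1 KO less that in UHRF1 WT was 26.7 points over 2363 tiles, and less that in E14 it was 25.7 points over 2591 tiles. These mean differences were not tested.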

How the results depend on the processing

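The mean change of 1.84 points moved with the tiles and calls counted. It was 3.43 points with 10 or more calls per tile, 0.632 with 50 or more, 1.68 at positions read in all 4 libraries, 0.276 over all calls, 0.815 over positions with 5 or more calls, 2.40 in 1000-bp tiles and 1.26 after the mitochondrial correction, which was chosen after seeing the data. The same correction turned the class under 10% in serum to -0.0986 points. The change in tiles of at least 50% in serum was 6.998 points with 50 or more calls. The difference between windows high in H3K9me2 and others (3.18 points) was 2.43 and 2.36 with 10 and 50 or more calls, 2.02 as a mean over positions, 3.66 with serum windows, 2.24 for the top 25% of windows and -0.783 within tiles of at least 50% in serum, the last chosen after seeing the data. Without 1 library these 3 values ranged from 1.79 to 1.88, 7.42 to 8.02 and 2.95 to 3.42 points. The cause was not tested.

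Of the tile calls, the 10 in the UHRF1 KO became 28 and 2 with 10 and 50 or more calls, 4 at positions read in all 4 libraries, 88 with 1 dispersion, 32 without a minimum difference, 19 in 1000-bp tiles, and 0 by limma (3521 at an unadjusted p under 0.05) or in tiles of at least 10% mean methylation (811 at an unadjusted p under 0.05). Without 1 library, a fit of 1 against 2, they ranged from 0 to 6, with 1457 to 2226 at an unadjusted p under 0.05 and changes of 16.3 to 61.4 points in the tiles called higher. Calls against UHRF1 WT were 3239, 127, 776 and 1949 with 10 and 50 or more calls, by limma and in tiles of at least 10%, and 428 to 960 without 1 library. Against E14 they were 5533, 148 and 3149 with 10 and 50 or more calls and without a minimum difference, and 721 to 1843 without 1 library. UHRF1 WT and E14 alone had 66 and 64 with 50 or more calls, and 224 to 795 and 1151 to 1593 without 1 library. Leaving out libraries of UHRF1 WT and E14 was chosen after seeing the data. The number of tiles tested changed with the call minimum, so these counts are not on 1 scale. With 10 and 50 or more calls, 48246 and 17618 tiles were tested in the UHRF1 KO. Against UHRF1 WT these were 43655 and 15635, and against E14 45635 and 17541. In tiles of at least 10% mean methylation, 5499 were tested in the UHRF1 KO and 4292 against UHRF1 WT.

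Deviations of same-numbered libraries had a correlation of -0.000964 across tiles, so no pairing by replicate number was detected. The noise of single tiles could hide a shared culture. With the replicate number as a block, 8, 1158 and 1916 tiles were called in the UHRF1 KO, against UHRF1 WT and against E14.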

Other observations

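The X chromosome was kept out of the tiles compared above. In its 599 tiles that met the same minimum, the UHRF1 KO stood at 6.04% and 5.66% at 96 h and at 7.04% and 6.86% at 168 h, a change of 1.10 points.

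At 168 h the UHRF1 KO and UHRF1 WT had nearly the same mean in tiles of at least 50% in UHRF1 KO serum, with a difference of -0.207 points after -26.9 points at 96 h. The classes did not match in the same way. In tiles of 90% and over in serum the difference was -7.20 points, with levels of 50.4% and 50.1% against 58.0% and 57.0% in UHRF1 WT. In tiles of 30 to 50% it stood 7.81 points higher, at 19.998% and 19.3% against 11.6% and 12.1%. These values were not tested.

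The Clcn4 start differed between the lines at every time listed. Its tile was at 59.0% in UHRF1 KO serum, 37.0% in E14 serum and 1.11% in the serum library of UHRF1 WT. At 168 h UHRF1 WT was at 0.254% and E14 at 23.0%.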
